A study of Danio rerio with 12 samples.

Results

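ATF3 is a stress-induced transcription factor of the ATF/CREB family that accumulates in injured or overloaded tissue and binds the promoters of many stress and growth genes. In the zebrafish (Danio rerio) line Tg(myl7:ATF3), the promoter of the cardiac myosin light chain gene myl7 drives ATF3 in heart muscle cells. The comparison described here is that of cardiac tissue from this line at 12 and at 4 months post-fertilization (mpf), with 3 biological replicates at each age, 6 of the 12 libraries of the study. It addresses how the transgenic heart changes as the animals get older. The other 6 libraries came from wild-type siblings of the same 2 ages and were used as the background for the change with age. The sources used here do not give whether a replicate is 1 heart or a pool, nor the sex of the fish.

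The libraries were made by oligo-dT priming close to the 3' end of polyadenylated RNA, and expression was given as FPKM (fragments per kilobase of transcript on a scale set for each library). Values were present for 400 rows of the gene table and the other 32120 rows, among them atf3, myl7 and the other 9 heart muscle markers looked for, were not analysed here. The rows are genes of the GRCz11 assembly: 333 protein-coding, 42 antisense, 10 processed transcripts, 8 rRNA rows of the nuclear and mitochondrial genomes, 6 lincRNA and 1 polymorphic pseudogene. They were divided by their values in the transgenic libraries. Above 0 in all 6 libraries were 204 rows, 171 had a 0 in at least 1 library of 4 mpf, and 5 had a 0 at 12 mpf alone. The 6 nuclear rRNA rows and the 14 rows of the mitochondrial (MT) genome were kept apart from these classes. The tissue could not be checked against its own markers, since 0 of 10 heart muscle, 0 of 4 endothelial, 0 of 5 epicardial and fibroblast and 0 of 4 macrophage and neutrophil markers had values. Of the markers of other cell types, hemgn of red cells, cd22 of B cells, itih2 of liver and cldni of surface epithelium had values.

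Most RNA in a cell is ribosomal, and mature rRNA has no long poly(A) tail, so oligo-dT priming reads it only in part. The mitochondrial genome is transcribed from both strands, and nd6, a subunit of respiratory complex I, is the sole protein gene on its strand in vertebrates. The table's layout was the same: of the 12 MT protein rows 11 lay on the plus strand and mt-nd6 on the minus strand. A kit of this type keeps the strand of the RNA. The sources used here do not give how strand was treated in the counting, and 272 of the 400 rows (68.0%) overlapped a gene on the other strand. For these rows, reads of the named gene and of its opposite partner cannot be told apart, and an overlapping partner is named beside each row that passed and most of the others described.

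The mix of reads differed between the ages in every transgenic library. The rRNA rows took 88.5%, 84.9% and 90.3% of the reads recovered from the 400 rows in replicates 1 to 3 at 4 mpf, and 33.9%, 31.7% and 31.5% at 12 mpf. The row mt-nd6 took 5.17%, 6.68% and 3.75% at 4 mpf and 47.5%, 42.4% and 42.8% at 12 mpf. Neither measure overlapped between the ages: rRNA made up most of the recovered reads in the younger hearts, and mt-nd6 was the most abundant row in the older ones. The MT share averaged 6.59% ± 2.49 and 46.2% ± 2.82, and that of all other rows 5.52% ± 0.306 and 21.4% ± 4.16 (SD, n = 3). Each of these differences reached p = 0.1 in an exact two-sided permutation test, the smallest p that 3 libraries against 3 allow (Benjamini-Hochberg adjusted p = 0.129 over 9 measures).

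The reads in rows other than rRNA and MT were alike in number at both ages. They came to 43712, 44673 and 30614 at 4 mpf and 41025, 49326 and 46707 at 12 mpf, and the ranges overlapped (exact permutation p = 0.4, adjusted p = 0.4). The total over the 400 rows was 786114, 770262 and 589598 reads at 4 mpf and 246362, 208831 and 194117 at 12 mpf, which is not the depth of a library, since it covers these rows alone. Rows listed at 0 numbered 64, 81 and 98 at 4 mpf and 9, 5 and 5 at 12 mpf, so that no library of 4 mpf came near one of 12 mpf (exact permutation p = 0.1, adjusted p = 0.129). In wild-type libraries the rows at 0 numbered 193, 134 and 46 at 4 mpf and 4, 3 and 9 at 12 mpf. Transgenic replicates also resembled each other more at 12 mpf: Spearman correlations over the rows were 0.855 to 0.882 within 12 mpf, 0.531 to 0.628 within 4 mpf and 0.508 to 0.657 between the ages. Age therefore cannot be told apart from the composition of the libraries in the results below, and in bulk tissue fewer cells of a type and less RNA per cell cannot be told apart either.

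**Figure D1:**
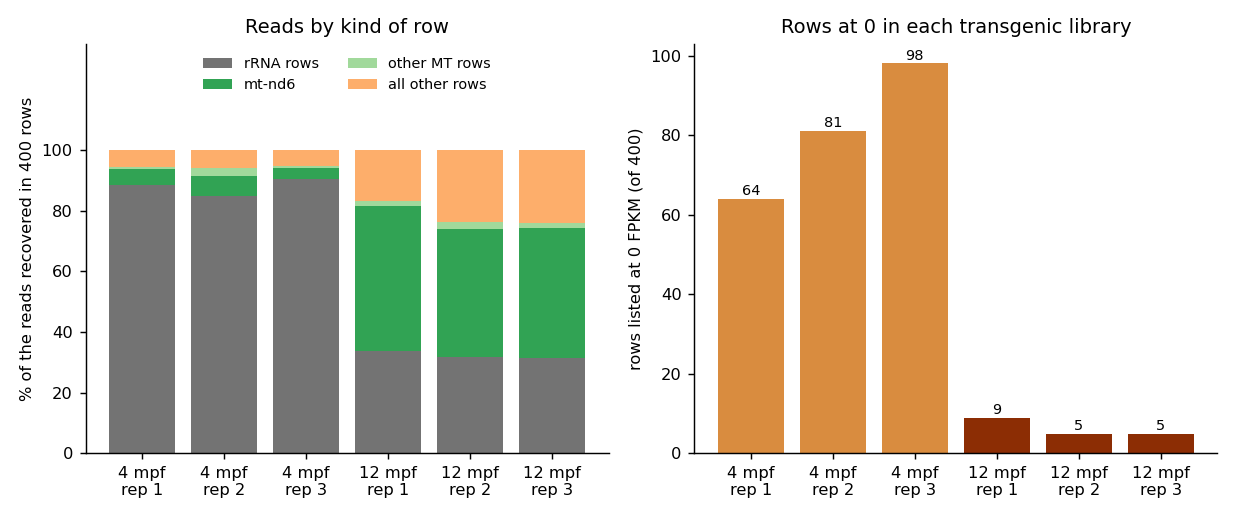
Left, the percentage of recovered reads in rRNA rows, mt-nd6, other MT rows and all other rows, for each of the 6 transgenic libraries (mpf, months post-fertilization; rep, replicate). Right, the number of the 400 rows listed at 0 FPKM in each library, 64 to 98 at 4 mpf and 5 to 9 at 12 mpf.

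Over all 400 rows, 8 were higher and 6 lower at 12 mpf than at 4 mpf by limma at an adjusted p under 0.05, which is 3.5% of the rows tested (2% higher and 1.5% lower), with 76 at an unadjusted p under 0.05. By class, 8 of the 14 were among the 204 rows above 0 throughout, 3 were rRNA rows, 1 was an MT row, 1 had zeros at 4 mpf and 1 had zeros at 12 mpf. The number of calls depended on which libraries were in the fit, and a fit without 1 library also has fewer libraries to test. Without transgenic replicate 3 of 12 mpf limma called 0 rows (47 at an unadjusted p under 0.05), without replicate 2 of 12 mpf it called 2, without replicate 3 of 4 mpf 2 and without replicate 2 of 4 mpf 7. The count also moved with wild-type libraries, which share the estimate of the spread: it was 24 without replicate 1 of 4 mpf, and 8 and 9 without replicates 2 and 3 of 12 mpf. Limma voom on the recovered reads called 20. The processed transcript CU695215.2 passed in 11 of the 12 fits that left out 1 library, the antisense row CR847503.2 in 10 and CR762497.1 in 9, while map7d3 and BX323041.1 passed in 3 and mt-nd6 in 2.

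A looser description is whether the 3 libraries of one age all lay on one side of the 3 of the other. This held for 134 of the 400 rows (33.5%), 89 higher (22.2%) and 45 lower (11.2%) at 12 mpf. Among the rows above 0 in all 6 libraries it held for 77 of 204 (37.7%), 41 higher and 36 lower, close to the share over all rows. Among the rows with a 0 at 4 mpf it held for 46 of 171 (26.9%), and there a row can only be higher at 12 mpf, since a 0 cannot lie above other values.

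Of the 6 rRNA rows, 3 were lower at 12 mpf by limma and none higher, and the ages were apart and lower in 5. Over all 400 rows, 1.5% were lower by limma and 11.2% were apart and lower. The 6 rows are not separate observations, since they come from 1 clone. The rows belong to the clone CT583728 on chromosome 4 between 55724043 and 55827702, a stretch with several copies of the ribosomal RNA genes. The row CT583728.7 was at 756, 1019 and 957 FPKM at 4 mpf and 317, 123 and 175 FPKM at 12 mpf. All 3 younger libraries lay above all 3 older ones, and the log2 change was -2.25 (SE 0.42, adjusted p = 0.0203 by limma). The row CT583728.3, opposite CT583728.10, was at 7757, 10335 and 6073 FPKM against 2314, 1069.9 and 664 FPKM, again without overlap (log2 change -2.74, SE 0.57, limma, adjusted p = 0.0297). The third that passed, CT583728.1, was at 1644, 2146 and 2961 FPKM against 1061, 581 and 643 FPKM (log2 change -1.57, SE 0.36, limma, adjusted p = 0.0424). These 3 rows passed in the same direction in wild-type hearts, with log2 changes of -3.12, -2.77 and -2.08, and for none of them did the interaction of age with genotype pass (limma, adjusted p = 0.87, 0.993 and 0.909).

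The most abundant rRNA rows could not be judged singly. The rows CT583728.13, CT583728.11 and CT583728.8 are each 1875 bases long, and CT583728.11 and CT583728.8 held identical values in each of the 3 libraries of 12 mpf (10150.2, 1.09 and 8558 FPKM). At 4 mpf CT583728.11 was at 571329, 318785 and 66104 FPKM and CT583728.8 at 1.96, 1.72 and 0 FPKM. The split of reads among near-identical copies is therefore uncertain, and none of the 3 passed (limma, adjusted p = 0.211, 0.282 and 0.273). Their sum was 678970, 560313 and 621649 FPKM at 4 mpf and 110946, 72057 and 63633 FPKM at 12 mpf. The means of 620311 ± 59340 and 82212 ± 25239 FPKM (SD, n = 3) differed 7.55-fold, without overlap (exact permutation p = 0.1, the smallest possible). In wild-type hearts the sum was also lower at 12 mpf, at 901493, 944765 and 589106 FPKM against 107351, 97033 and 38447 FPKM.

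Of the 14 MT rows, mt-nd6 alone passed (7.14%, against 3.5% over all rows), and the ages were apart in 2 (14.3%, against 33.5%). The row mt-nd6 was at 143466, 159813 and 93496 FPKM at 4 mpf and 564185, 349320.4 and 313902 FPKM at 12 mpf. The lowest older library lay far above the highest younger one, and the fitted log2 change came to 1.62 (SE 0.40, limma, adjusted p = 0.0468). The wild-type change was 1.21 and did not pass (limma, adjusted p = 0.109), and the difference between the genotypes did not pass either (interaction 0.40, adjusted p = 0.918). The ATP synthase subunit mt-atp6 was the other MT row without overlap, at 185, 203 and 276 FPKM against 1086, 520.4 and 341 FPKM, and did not pass (log2 change 1.40, limma, adjusted p = 0.294).

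The other respiratory chain rows of the plus strand showed no common direction. The cytochrome oxidase subunit mt-co1, the most abundant of them, was at 4919, 18619 and 3639.9 FPKM at 4 mpf and 4735, 3548 and 2105 FPKM at 12 mpf, overlapping ranges (log2 change -1.08, limma, adjusted p = 0.372). The complex I subunit mt-nd2 was at 851, 920.3 and 614 FPKM against 822, 748 and 707 FPKM (log2 change -0.05, limma, adjusted p = 0.942), and the cytochrome b gene mt-cyb at 890.4, 602 and 413 FPKM against 771, 803 and 493 FPKM (log2 change 0.15, limma, adjusted p = 0.889). Summed over the 11 plus-strand protein rows, the level was 12560 ± 8549 FPKM at 4 mpf and 7159 ± 2226 FPKM at 12 mpf (SD, n = 3, exact permutation p = 0.5). The share of MT protein reads counted to mt-nd6 was 80.8% ± 7.95 at 4 mpf and 95.9% ± 0.707 at 12 mpf (SD, n = 3), without overlap (exact permutation p = 0.1). Of the complex I rows, mt-nd1 and mt-nd4 had log2 changes of -0.62 and -1.03, mt-nd5 one of -0.04, and mt-nd3 and mt-nd4l, each with a 0 at 4 mpf, 1.92 and 1.86. The oxidase subunits mt-co2 and mt-co3 had 0.64 and 0.67. The ages overlapped in each of these 7 rows and none passed (limma, adjusted p from 0.343 to 0.949). The rows mt-nd5 and mt-nd6 overlap by 4 bases on opposite strands. Since the strand setting is not given, reads from the 2 strands cannot be told apart over the full length of mt-nd6 or of the other MT rows. The mitochondrial rRNA rows NC_002333.17 and NC_002333.4 were low, at 0 to 74.3 FPKM in the 6 libraries, with overlapping ages.

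**Figure D2:**
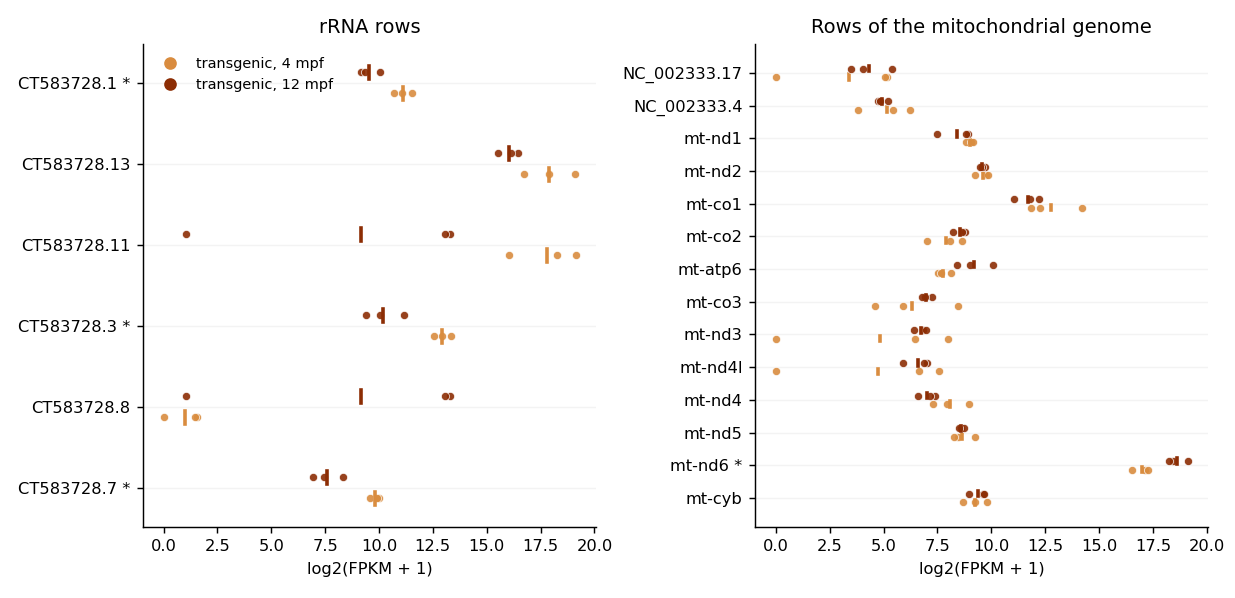
Level of each rRNA row (left) and MT row (right) as log2(FPKM + 1) in the transgenic libraries; points are libraries, 3 at each age, short bars their means, and an asterisk marks a row that passed (limma, adjusted p under 0.05). The 3 marked rRNA rows lie lower at 12 mpf and mt-nd6 lies higher, while CT583728.11 and CT583728.8 scatter together at 12 mpf.

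Among the 204 rows above 0 in all 6 libraries, rises and falls in FPKM were about equal in number. Part of this balance is fixed by how the rows were chosen. The class leaves out 171 rows with a 0 at 4 mpf, but only 5 with a 0 at 12 mpf alone. Over all 400 rows the median log2 change was 0.64. In the 204 rows it was -0.02, with quartiles of -0.77 and 0.79 and a range from -3.62 to 3.27. The estimate was above 0 in 100 rows and below 0 in 104, and 121 (59.3%) lay within a factor of 2. The libraries were also alike in level: the median row was at 53.9, 37.3 and 46.8 FPKM at 4 mpf and 47.8, 45.3 and 42.6 FPKM at 12 mpf. How the FPKM values were scaled between libraries is not given. The factor per library that links reads to FPKM was 545307, 620607 and 456122 at 4 mpf. The reads recovered from the 400 rows alone were more, at 786114, 770262 and 589598, so the scale was not the total of reads. A scale that levels the typical row would remove a shift shared by most rows, so such a shift cannot be judged from these values. The spread between replicates was wider in the younger hearts, with a median SD of the log2 values of 0.67 at 4 mpf and 0.38 at 12 mpf, and a larger SD at 4 mpf in 152 rows (74.5%).

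Kinds of row differed in their medians, which are given as a description. In the whole class of 204 rows, 41 were higher and 36 lower without overlap (37.7% apart). The counts by kind below were not tested against this share. The 174 protein-coding rows had a median of -0.10, with 31 higher and 34 lower without overlap, and the 23 antisense rows a median of 0.15, with 6 higher and 2 lower. The other 7 rows, 4 lincRNA, 2 processed transcripts and 1 polymorphic pseudogene, had a median of 1.50, with 4 higher. In the 142 rows that contain an opposite gene's 3' end the median was -0.05, with 24 higher and 31 lower, and in the other 62 rows it was 0.32, with 17 higher and 5 lower. When the rows were divided into 4 equal bins of mean level, 7 of the 8 that passed were in the highest bin, and slc19a1 was in the bin below it. The median row length was 6343 bases in the lowest bin and 1826 bases in the highest.

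Of the 6 rows above 0 throughout that rose, 4 are noncoding, in a class of 174 protein-coding, 23 antisense and 7 other rows. Passing rows lay mostly in the highest bin of level, and antisense and other rows were at higher FPKM. Their median level at 4 mpf was 119 and 168 FPKM, against 42.8 FPKM for protein-coding rows. They were also shorter, with median lengths of 1872 and 692 bases against 3815 bases, and FPKM divides reads by length. Levels in reads were not compared between these kinds of row. The row CR762497.1, a processed transcript on chromosome 13 from 24283670 to 24286390 (minus strand), overlaps acta1b, an alpha-actin gene of striated muscle. It was at 867, 1236 and 681 FPKM at 4 mpf and 5753, 6675 and 5049.9 FPKM at 12 mpf. The ages were far apart and the replicates close, and the row rose 6.28-fold in mean FPKM (log2 change 2.68, SE 0.49, limma, adjusted p = 0.0190). In wild-type hearts it was at 7416, 1747 and 2608 FPKM at 4 mpf and 5375, 5143 and 10075 FPKM at 12 mpf, overlapping ranges, and the difference between the changes did not pass (interaction 1.67, limma, adjusted p = 0.515).

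The antisense row CR376766.3, on chromosome 13 from 2349076 to 2350355 (minus strand), overlaps klhl31, a Kelch-family gene known from muscle. It was at 72.3, 586 and 244 FPKM at 4 mpf and 1701, 1131 and 1480.1 FPKM at 12 mpf. The younger libraries were far apart from each other, yet all lay below the older ones (log2 change 2.69, SE 0.64, limma, adjusted p = 0.0424). The antisense row CR847503.2 spans 26329818 to 26368366 on chromosome 8 (minus strand), opposite prkar2aa, a regulatory subunit of protein kinase A. It was at 1907, 1208 and 690.3 FPKM and then at 8583, 4704 and 7653 FPKM, with no overlap and a 5.50-fold higher mean (log2 change 2.53, SE 0.45, limma, adjusted p = 0.0190).

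The lincRNA CR383676.3, on chromosome 14 from 45636960 to 45638392 (plus strand) opposite CR383676.2, had the highest FPKM of the passing rows outside rRNA and MT. It was at 6873, 2768 and 3945 FPKM at 4 mpf and 11346, 21899.5 and 13610.4 FPKM at 12 mpf, a 3.45-fold higher mean without overlap (log2 change 1.83, SE 0.39, limma, adjusted p = 0.0319). It also rose in wild-type hearts, by 1.90 on the log2 scale (limma, adjusted p = 0.0180).

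Only 2 protein-coding rows above 0 throughout rose by limma in the 12-library fit. ENSDARG00000019081 is named DHDH, for dihydrodiol dehydrogenase, in the gene name table. It lies on chromosome 18 from 951092 to 968706 (minus strand), opposite pkma, the muscle-type pyruvate kinase of glycolysis. It was at 409, 384 and 286 FPKM at 4 mpf and 1248, 1081 and 886 FPKM at 12 mpf, a tight separation (2.98-fold in mean FPKM, log2 change 1.57, SE 0.32, limma, adjusted p = 0.0297). The gene map7d3, of a family of microtubule-associated proteins, lies on chromosome 14 from 31668510 to 31715412 (minus strand), and the 3' end of the LIM-domain gene fhl1a on the other strand is 12 bases away. It was at 128, 200.0 and 123 FPKM and then at 619, 653 and 489 FPKM, without overlap (3.91-fold, log2 change 1.99, SE 0.47, limma, adjusted p = 0.0424).

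Of the rows above 0 throughout, 2 fell. The gene slc19a1 codes for the reduced folate carrier, which brings folate into cells. It lies on chromosome 6 from 20647155 to 20670145 (plus strand) opposite LO018113.1. It was at 146, 214 and 182 FPKM at 4 mpf and 34.3, 10.6 and 6.59 FPKM at 12 mpf. Every older library was far below every younger one, a 10.5-fold lower mean (log2 change -3.62, SE 0.79, limma, adjusted p = 0.0319). Wild-type hearts had 82.9, 107 and 58.8 FPKM against 8.08, 19.8 and 11.7 FPKM, also without overlap, a change of -2.61 that did not pass (limma, adjusted p = 0.0873). The protein-coding row FO704772.3, at the end of chromosome 7 from 7658 to 10618 (minus strand) opposite FO704772.2, was at 1181, 1824 and 1744 FPKM and then at 445, 258 and 126 FPKM, without overlap (log2 change -2.67, SE 0.65, limma, adjusted p = 0.0460). It fell by 3.91 on the log2 scale in wild-type hearts (limma, adjusted p = 0.00870).

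Next to these by p-value, and not passing, were an antisense row and an unnamed protein-coding row. The antisense row CR759841.1 lies opposite appb, a gene of the amyloid precursor protein family. It was at 37.7, 54.0 and 49.0 FPKM at 4 mpf and 156.7, 122.3 and 129.8 FPKM at 12 mpf (log2 change 1.53, limma, adjusted p = 0.0758). The row BX547934.2 had the largest positive estimate of this class, at 2.41, 29.6 and 4.32 FPKM against 98.6, 63.2 and 77.2 FPKM (log2 change 3.27, limma, adjusted p = 0.0880). Both were without overlap between the ages.

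**Figure D3:**
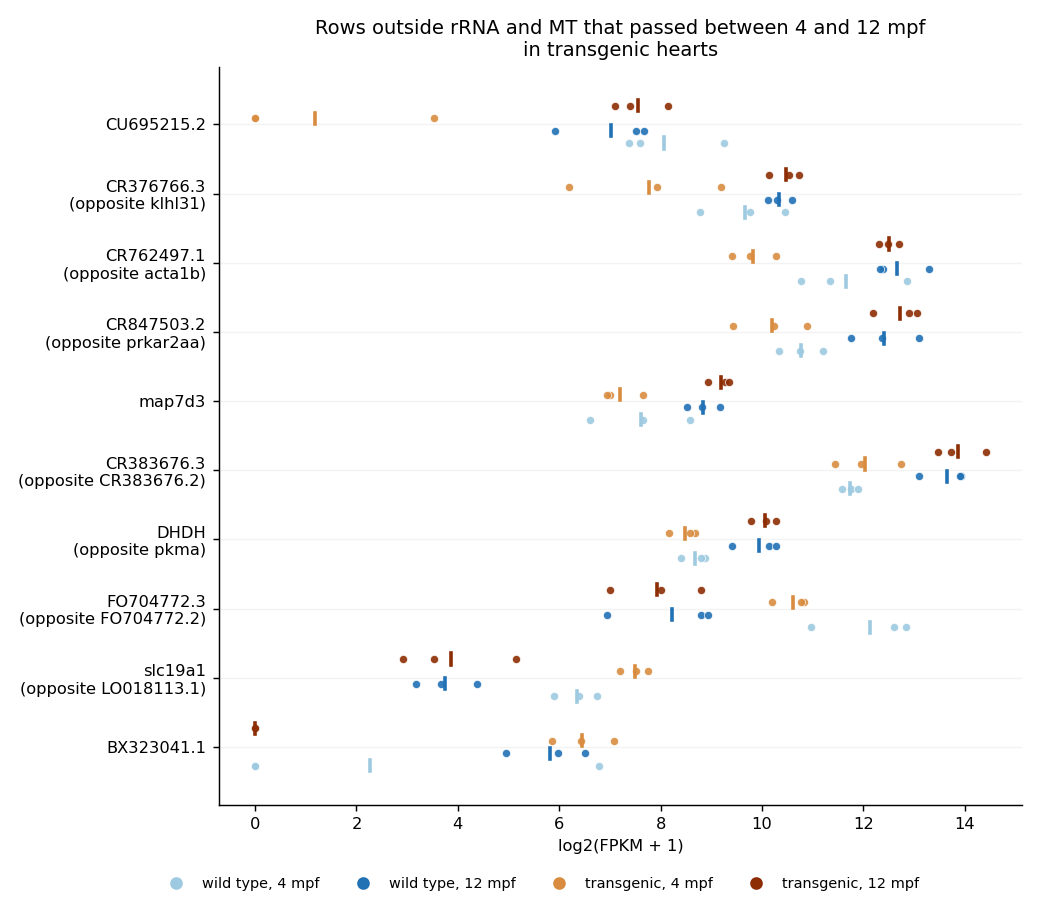
Level as log2(FPKM + 1) of the 10 rows outside rRNA and MT that passed between the ages in transgenic hearts, with the opposite-strand partner in brackets; points are libraries, 3 in each of 4 groups, and short bars are group means. The transgenic ages do not overlap in any of the 10. In CU695215.2 and BX323041.1 the wild-type ages overlap, and the fitted wild-type change has the opposite sign.

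The 171 rows with a 0 at 4 mpf gave a different picture, part of which their definition fixes: a 0 pulls the mean at 4 mpf down. Their median log2 change was 1.82 (quartiles 0.93 and 2.50), with 157 estimates above 0 and 14 below. Taken instead as the log2 ratio of mean FPKM, the median was 0.54 over the 164 rows that have one (the 7 with 3 zeros do not), while the same measure was -0.16 in the rows above 0 throughout. The rows were low. The median row had 17, 8 and 0 recovered reads at 4 mpf and 20, 21 and 20 at 12 mpf. Zeros were scattered over the libraries rather than shared: 110 rows had 1 zero, 54 had 2 and 7 had 3.

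The young libraries in which such a row was read are set beside the older hearts as a description only, since they were picked for being above 0. In the 110 rows with 1 zero, the mean of the other 2 young libraries had a median of 21.3 FPKM, against 18.8 FPKM for the mean at 12 mpf, and it was the higher of the pair in 66 rows. In the 54 rows with 2 zeros, the 1 remaining library had a median of 18.6 FPKM against 12.0 FPKM at 12 mpf, and was higher in 34. The median log2 change was 1.28 in the rows with 1 zero and 3.93 in those with 3. The median SD of the log2 values was 2.55 at 4 mpf and 0.54 at 12 mpf. A 0 in wild-type libraries of 4 mpf was found in 144 of these rows (84.2%) and in 90 of the 204 rows above 0 in all transgenic libraries (44.1%).

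**Figure D4:**
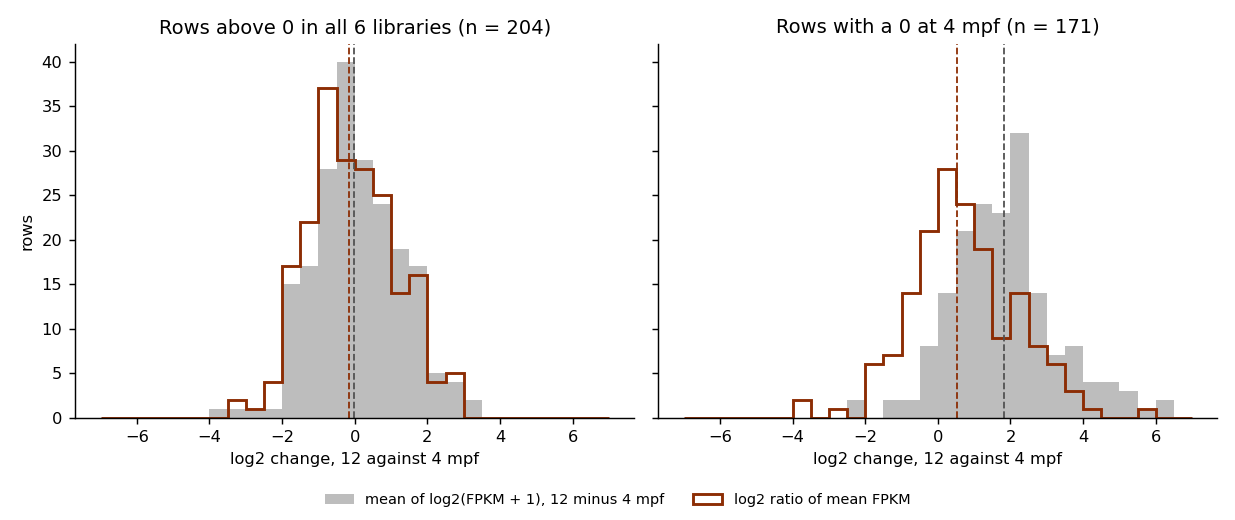
Distribution of the log2 change from 4 to 12 mpf in the 204 rows above 0 in all 6 libraries (left) and the 171 rows with a 0 at 4 mpf (right), from the means of log2(FPKM + 1) (grey) and from the ratio of mean FPKM (line; the 7 rows with 3 zeros have none). Dashed lines are the medians of what is drawn, which lie close together on the left, while the grey distribution on the right is shifted to higher values.

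Of the 171 rows, 1 passed. The processed transcript CU695215.2 is 209 bases long, on chromosome 19 from 47574615 to 47574823 (plus strand), and has no overlapping partner. It was listed at 0, 0 and 10.5 FPKM at 4 mpf and 167, 137 and 281 FPKM at 12 mpf, which is 0, 0 and 1 read against 14, 14 and 30. All older libraries lay above all younger ones (log2 change 6.37, SE 0.99, limma, adjusted p = 0.0141), and the pooled ratio was 67.2 with a 95% exact counting interval of 11.6 to 2701, which covers counting error only. Wild-type hearts had 611, 164 and 193 FPKM at 4 mpf and 181, 59.3 and 202 FPKM at 12 mpf, overlapping ranges (log2 change -1.05, limma, adjusted p = 0.549). The change with age differed between the genotypes by 7.42 on the log2 scale (interaction, SE 1.40, limma, adjusted p = 0.0482), a call kept in 7 of 22 alternatives (adjusted p up to 0.260).

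None of the 7 rows at 0 in all 3 young libraries passed by limma, where 37 of the 171 rows had an unadjusted p under 0.05 and limma voom on the recovered reads passed 9 of the 171. The antisense row CT573133.2, opposite pbxip1a, was nearest, at 72.5, 42.8 and 63.1 FPKM at 12 mpf, at least 6.55-fold higher than a floor of 3 reads in each young library (limma, adjusted p = 0.0581). The elastase gene cela1.6, of the pancreatic digestive enzymes, opposite BX511034.2, BX511034.4 and BX511034.8, was at 16.9, 22.4 and 7.40 FPKM (at least 13.9-fold, limma, adjusted p = 0.0747). The armadillo repeat gene armc5 was at 12.7, 8.05 and 13.95 FPKM (at least 10.9-fold, limma, adjusted p = 0.0747), 483 bases from the 3' end of the opposite cox6a2, a muscle-type subunit of cytochrome oxidase. These floors cover counting error only, and in each of the 3 rows at least 1 wild-type library of 4 mpf held a value as high as the lowest transgenic one of 12 mpf.

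The others at 0 in all 3 were bspry, at 33.7, 23.4 and 14.5 FPKM at 12 mpf, the processed transcript BX323875.1, opposite crfb4, at 27.2, 13.2 and 13.4 FPKM, alad, a heme synthesis enzyme, at 0, 7.48 and 12.7 FPKM, and garem, opposite prkdc. The adjusted p-values of bspry and BX323875.1 were 0.0880 and 0.112 (limma). Rows with 1 or 2 zeros and the smallest p-values were si:ch211-66c13.1 (adjusted p = 0.0747), taf11 (0.110), which codes for a subunit of the general transcription factor TFIID, atp6ap1a (0.136), an accessory subunit of the proton pump, and BX936308.2 (0.136), by limma. The values of atp6ap1a were 0, 26.1 and 0 FPKM at 4 mpf and 76.2, 125.2 and 92.0 FPKM at 12 mpf, and the 3' end of the cardiac troponin C gene tnnc1a on the other strand is 3362 bases away. BX936308.2, opposite mvp and BX936308.1, was at 83.5, 0 and 0 FPKM and then at 341.5, 307.3 and 291.3 FPKM. In each of these 4 rows the ages did not overlap.

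Zeros at 12 mpf alone were found in 5 rows, named here after their values were seen. The lincRNA BX323041.1, on chromosome 7 from 54926474 to 54935564 (minus strand), was at 84.9, 56.9 and 134 FPKM at 4 mpf and listed at 0 in all 3 libraries of 12 mpf. This is at least 11.6-fold lower against a floor of 3 reads per library (log2 change -6.45, SE 1.53, limma, adjusted p = 0.0424). In wild-type hearts it was at 0, 0 and 109 FPKM and then at 29.9, 90.6 and 62.4 FPKM, and the interaction of -10.01 did not pass (limma, adjusted p = 0.0813). The gene tma7, named in yeast for its association with the translation machinery, lies opposite dnase1l4.1 and was at 335, 177 and 380.0 FPKM against 0, 14.4 and 0 FPKM (adjusted p = 0.0758 by limma), CR848791.1, opposite dhx40, at 255, 291 and 240.0 FPKM against 0, 42.4 and 46.4 FPKM (0.238), and rpsa, a ribosomal protein gene, at 15.9, 8.64 and 16.7 FPKM against 1.55, 0 and 0.808 FPKM (0.165). The ages did not overlap in these rows. CABZ01046093.1 was the exception, at 56.4, 85.1 and 5.47 FPKM against 43.7, 34.9 and 0 FPKM.

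Gene groups were read from 15 lists of sarcomere, calcium handling, energy metabolism, ribosome, proteasome, cell cycle, stress, interferon, matrix and cell type genes. By their own symbol 20 rows from 9 lists had values, and 0 passed in either direction by limma (7 of the 20, 35.0%, at an unadjusted p under 0.05, against 76 of 400, 19.0%, and 0 by limma voom). Their median log2 change was 0.76 against 0.64 over all 400 rows. The ages were without overlap in 7 of the 20 (35.0%), 4 higher and 3 lower, close to the 33.5% over all rows.

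The study's title names proliferation, and of the cell cycle list 2 genes had values. The replication licensing inhibitor geminin, gmnn, was at 5.91, 21.4 and 29.2 FPKM at 4 mpf and 46.4, 79.98 and 78.95 FPKM at 12 mpf. The ages did not overlap, and the difference did not pass (log2 change 2.01, limma, adjusted p = 0.282). It lies opposite tdp2b and ENSDARG00000093406. The cytokinesis regulator racgap1, opposite CR354542.1 and si:ch211-210c8.6, was at 21.1, 8.08 and 8.87 FPKM against 10.1, 12.9 and 8.56 FPKM, overlapping ranges (log2 change -0.14, limma, adjusted p = 0.942).

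Of the cytosolic ribosome, which makes protein, 4 genes had values. The gene rpl17, which lies opposite nefma and the muscle phosphoglycerate mutase pgam2, was at 87.5, 163.7 and 49.4 FPKM at 4 mpf and 310.4, 282.8 and 300.2 FPKM at 12 mpf, without overlap (log2 change 1.73, limma, adjusted p = 0.238). The genes rpl31 and rpl4, the latter opposite map2k1, had log2 changes of 3.62 and 0.89 and rpsa one of -3.10, and none of them passed. Of the proteasome, which degrades proteins, 2 genes had values. The subunit gene psma6b, opposite the NF-kappa-B inhibitor nfkbiaa, was at 180.4, 202.4 and 241.0 FPKM against 59.9, 45.6 and 55.0 FPKM, without overlap (log2 change -1.94, limma, adjusted p = 0.157). The other, psma1, opposite CABZ01095001.1, was at 0, 9.79 and 0 FPKM against 46.5, 8.55 and 34.2 FPKM, with overlap (log2 change 3.51, limma, adjusted p = 0.282). The serine synthesis gene psph, of the integrated stress response, was at 601, 583 and 364 FPKM against 793, 790.2 and 737 FPKM, without overlap (log2 change 0.62, limma, adjusted p = 0.539). The 3' end of nipsnap2 on the other strand is 2 bases from psph. The interferon signal transducer stat1a, at 23.6, 3.64 and 0 FPKM against 14.7, 17.1 and 7.52 FPKM, overlapped between the ages.

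Markers of cells other than heart muscle did not pass in either direction by limma. Of the red cell list, 2 genes had values, with estimates of opposite sign. The gene hemgn, opposite trmo, was at 33.8, 20.5 and 45.8 FPKM at 4 mpf and 9.22, 11.7 and 4.82 FPKM at 12 mpf, without overlap and without passing (log2 change -1.84, limma, adjusted p = 0.282). The heme synthesis gene alad, given above, had a log2 change of 2.29 (limma, adjusted p = 0.238). The B-cell gene cd22 was at 91.0, 70.3 and 176.9 FPKM against 17.7, 90.3 and 68.4 FPKM, and the surface epithelium gene cldni, opposite coro1a, at 380.3, 112.0 and 357.1 FPKM against 120.3, 145.5 and 106.1 FPKM, both with overlap. The liver gene itih2, opposite kin, was at 25.3, 0 and 0 FPKM against 4.601, 12.5 and 5.41 FPKM, also with overlap. The antisense row grnas, opposite the protein-coding genes grn1 and grn2 and matched to the myeloid list, had a log2 change of -0.16 (limma, adjusted p = 0.942). The part of other cell types in the changes above was not tested.

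Matched by an overlapping partner on the other strand, 15 rows belonged to the lists, and 2 of them (13.3%, against 3.5% over all rows) passed, both higher: CR762497.1 opposite acta1b and ENSDARG00000019081 opposite pkma. The ages were apart in 7 of the 15 (46.7%, against 33.5% over all rows), higher in 3 and lower in 4. Over all rows, 22.2% were apart and higher and 11.2% apart and lower. Those lower among the 15 were hgd, map2k1 and zgc:153284, opposite ndufb4, rpl4 and rps12, and the row opposite the proteasome gene psmd4a. None of them passed. The other row opposite a sarcomere gene, zdhhc13 opposite csrp3, overlapped between the ages (196.2, 401.1 and 113.4 FPKM against 253.0, 120.4 and 118.4 FPKM). A row opposite the complex I subunit ndufb4, hgd of tyrosine breakdown, was at 700.4, 1054 and 546.5 FPKM against 496.5, 485.1 and 350.3 FPKM, without overlap and without passing (log2 change -0.75, limma, adjusted p = 0.252). A match added after the data were seen, by the nearest opposite 3' end within 5000 bases, gave 23 rows, of which 2 passed (8.70%, against 3.5%). These were again CR762497.1 and ENSDARG00000019081, so the 2 matches do not count separate passing rows.

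Beside the wild type, the transgenic change with age was of the same order. In wild-type hearts limma passed 16 rows (4%), 12 higher and 4 lower, and the ages did not overlap in 97 (24.2%). Of the 14 transgenic rows, 5 passed in both genotypes and 12 had the same sign in wild type, against 278 of all 400 rows (69.5%). Over the 114 rows outside rRNA and MT that were above 0 in all 12 libraries, the median was 0.11 in transgenic and 0.28 in wild-type hearts, and 87 rows (76.3%) had the same sign. Pearson's r of the changes over these rows was 0.589 and Spearman's rho 0.578, a description over rows that share their libraries. Both were lower over the 204 rows above 0 in all transgenic libraries (0.317 and 0.296) and over all 400 rows (0.370 and 0.322). The 90 rows above 0 in all transgenic libraries with a 0 in a wild-type one all had such a 0 at 4 mpf. Their medians were -0.15 in transgenic and 1.83 in wild-type hearts, and 40 (44.4%) had the same sign. A 0 pulls the wild-type mean at 4 mpf down, so part of this difference is fixed by how the rows were chosen.

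A difference between the genotypes in the change with age passed for 2 of the 400 rows (0.5%, limma interaction, 33 at an unadjusted p under 0.05), CU695215.2 and mpp6a. The scaffold protein gene mpp6a, on chromosome 16 from 21442362 to 21489641 (minus strand), was flat in transgenic hearts, at 9.25, 11.01 and 22.8 FPKM at 4 mpf and 11.8, 10.6 and 14.3 FPKM at 12 mpf (log2 change -0.12, limma, adjusted p = 0.942). Wild-type hearts had 0.569, 0 and 0 FPKM and then 31.2, 52.8 and 41.6 FPKM, a rise of 5.17 on the log2 scale (limma, adjusted p = 0.00253). The interaction was -5.29 (SE 1.02, limma, adjusted p = 0.0482) and was kept in 10 of 23 alternatives, with an adjusted p of up to 0.260. The superoxide-producing oxidase nox1 had an interaction of -4.31 that did not pass (limma, adjusted p = 0.151), with 17.2, 24.4 and 10.6 FPKM against 9.69, 11.9 and 16.4 FPKM in transgenic hearts and 0 at 4 mpf in all 3 wild-type ones. The 3' end of cstf2 on the other strand is 11 bases from nox1. Both mpp6a and nox1 were at or near 0 in the wild-type libraries of 4 mpf.

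**Figure D5:**
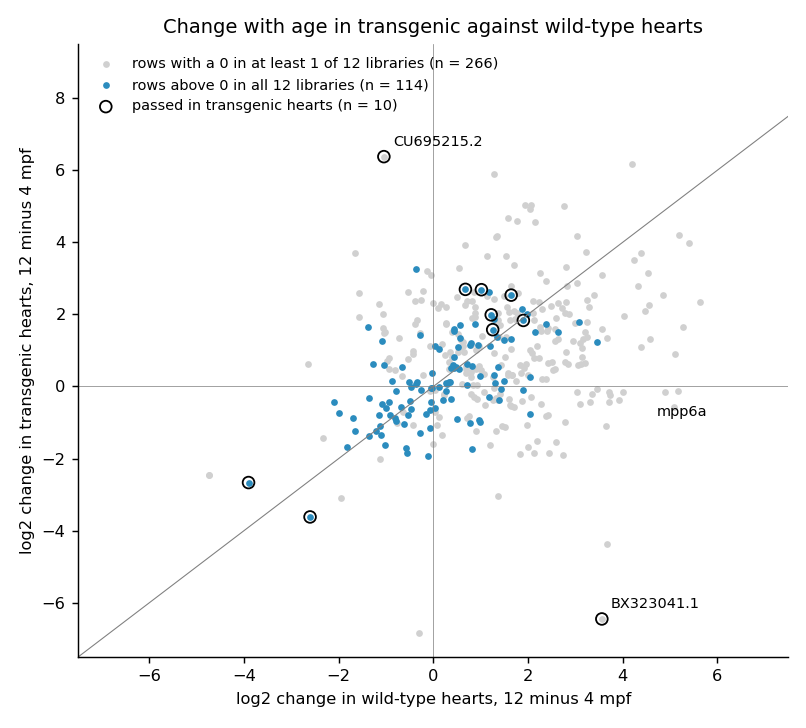
Log2 change from 4 to 12 mpf in transgenic hearts (vertical) against that in wild-type hearts (horizontal) for the 380 rows outside rRNA and MT; blue, the 114 rows above 0 in all 12 libraries, grey, the other 266, circles, the 10 that passed in transgenic hearts. CU695215.2, BX323041.1 and mpp6a lie far from the line of equal change.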

How the data were processed

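Per the labels' protocols, RNA of cardiac tissue was made into QuantSeq 3' FWD libraries without rRNA depletion and sequenced single-end. No molecular identifiers are named, so intervals and floors cover counting error only. The authors deposited FPKM values, on GRCz11, with DESeq2, RSEM, STAR and Trim Galore among the tools listed in the submitters' processing notes. The sources used here do not give versions, strand setting, the library scale or how the 400 of 32520 rows with values were chosen. Each of the 12 value columns matched 1 library by name.

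Read numbers were recovered from the FPKM values with a factor per library, solved on 12 MT genes, and a length per row. All 400 rows came out whole within 0.0001 reads. They give depth and shares and an alternative test.

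Values were transformed as log2(FPKM + 1) with no further scaling. A row entered the test with 1 FPKM or more in 3 or more libraries, which all 400 met. Limma 3.58.1 (R 4.3.3) fitted 4 group means to all 12 libraries, with eBayes set to trend and robust. Contrasts were 12 minus 4 mpf in each genotype and their difference. Tests were two-sided, with Benjamini-Hochberg adjustment over 400 rows and a threshold of 0.05. The fit was tested on simulated data. Whole-library measures were compared by exact permutation tests (Python 3.11.15, scipy 1.17.1). Folds against a group at 0 are bounds that put 3 reads in each of its libraries. Opposite partners and distances come from the table's coordinates, and the gene name table held 366 of the 400 identifiers.

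Named were all rRNA and MT rows, and in each class the passing rows with ages that do not overlap. Where a class had fewer than 10 passing rows, the 10 smallest p-values among such rows were named, with the top 5 of the interaction and passing list members. Other rows are list members. The classes, lists and tests were chosen with earlier results of these data known. Alternatives were other pseudocounts, filters, scaling, weights, moderation, limma voom with TMM scaling, the transgenic libraries alone, a replicate block and each library left out. Added after seeing the data were fits of the rows above 0 alone and without rRNA and MT rows, the ratio of mean FPKM, and the match by nearest 3' end. Of the rows with ages apart in opposite directions in the genotypes, 1 is not reported here.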

Additional observations from a re-analysis of the deposited data

Results flagged for a closer look

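A difference between the genotypes in the change with age passed for 2 rows, the transcript CU695215.2 with an interaction of 7.42 on the log2 scale and the scaffold gene mpp6a with -5.29 (limma, adjusted p = 0.0482 for each).

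In 5 other rows the ages were apart in both genotypes, lower at 12 mpf in transgenic and higher in wild-type hearts. None of their interactions passed (limma). Of all 400 rows, 45 (11.2%) were apart and lower in transgenic hearts, and 97 (24.2%) were apart in either direction in wild-type hearts. Whether 5 such rows exceed what these shares alone would give was not tested. The disulfide isomerase gene txndc5 had a log2 change of -1.50 in transgenic and 2.18 in wild-type hearts (interaction, limma, adjusted p = 0.176). The red cell gene hemgn, opposite trmo, had -1.84 and 2.45 (adjusted p = 0.253, limma) and the CTP synthase gene ctps1a -1.09 and 1.46 (adjusted p = 0.344, limma). The proteoglycan gene epyc had -1.12 and 1.51, and the kinase gene map2k1, opposite rpl4, -0.997 and 0.986 (adjusted p = 0.579 for each, limma). The wild-type libraries of 4 mpf were all at 0 for txndc5 and ctps1a, and 2 of 3 were at 0 for hemgn.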

How the results depend on the processing

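The direction of every named row that passed was the same under each alternative run, and each of their calls was lost under at least 1. Against 8 rises and 6 falls there were 16 and 4 with arrayWeights, 16 and 4 with limma voom, 1 and 1 with eBayes without trend and robust, 5 and 1 without rRNA and MT rows, and 4 and 2 with the replicate block. Of the rows above 0 throughout (6 rises and 2 falls), the plain eBayes fit called 0 and 1, the replicate block 3 and 0, and arrayWeights, limma voom and the fit without rRNA and MT rows 1 fall each. Of the rows with zeros at 4 mpf (1 rise), the 6 transgenic libraries alone called 6, arrayWeights 12 and limma voom 9. The 2 interactions became 0 with a pseudocount of 0.5, median-of-ratios scaling or the replicate block, 1 with a pseudocount of 5, plain eBayes or limma voom, and 3 with arrayWeights. Same-numbered libraries did not deviate together between the ages (correlations -0.082, -0.042 and 0.029), so no pairing by number was seen in these values. Whether same-numbered libraries shared a batch was not tested. Leaving out 1 library gave 0 to 17 rises, 0 to 7 falls and 0 to 15 interactions, with 0 to 9 rises and 0 to 2 falls above 0 throughout and 0 to 9 rises with zeros. In the fits that left out 1 library, the medians stayed within -0.04 to 0.14 above 0 throughout and 1.48 to 2.04 with zeros. Other processing moved the median with zeros further, from 1.82 to 2.17 with a pseudocount of 0.5, 0.87 with a pseudocount of 5 and 2.40 with limma voom. As the log2 ratio of mean FPKM it was 0.54. The median above 0 throughout was -0.13 with median-of-ratios scaling. As shares of summed FPKM in place of reads, the rRNA rows differed by -63.0 and the MT rows by 56.1 percentage points between the ages, against -55.5 and 39.6. For none of these was the cause tested. The rows with zeros rest on few reads, a median of 17, 8 and 0 in the libraries of 4 mpf.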

Other observations

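In both genotypes the ages were apart in the same direction in 24 rows that were higher and 13 that were lower at 12 mpf. In 6 rows they were apart in opposite directions. Of all 400 rows, the ages were apart in 134 (33.5%) in transgenic and in 97 (24.2%) in wild-type hearts. Whether more rows were shared than these shares alone would give was not tested. The following rows, chosen after their values were seen, did not pass in transgenic hearts. The lubricin gene prg4b, opposite tprb, had a log2 change of 1.86 in transgenic and 1.28 in wild-type hearts, and trpc4apa 1.24 and 3.45. The kinase gene nek4, opposite spcs1, had -1.23 and -1.21, the tRNA methyltransferase gene trmt13, opposite the muscle gene lrrc39, -0.87 and -0.82, and the secretory pathway gene ergic3, opposite romo1, -1.68 and -1.83. All of these rows were above 0 in the 6 transgenic libraries.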
